A study of Homo sapiens with 30 samples.

Results

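The genes described here are 9 antioxidant and iron-handling genes of the NRF2 response: HMOX1, FTL, FTH1, GCLC, GCLM, TXNRD1, SRXN1, NQO1 and OSGIN1. They were taken by symbol from a list of oxidative stress genes, and all 9 were found by Ensembl gene ID among the 62710 genes of the IMR32 table and the 57905 genes of each of the NGP and SK-N-BE(2)c tables. HMOX1 was selected on its measured level in IMR32, high with ASO1 against both ASO2 and the control, and the other 8 were added as listed genes of the same response with earlier results of these data known. For that reason the comparisons of each oligonucleotide with the control, and of ASO1 with ASO2 in IMR32, are given as descriptions, with no p-value for any single one of these genes and with counts of calls only beside the share of all genes. IMR32, NGP and SK-N-BE(2)c are established human neuroblastoma lines, and cells of each were transfected with an antisense oligonucleotide (ASO) at 100 nM by lipofection. ASO1, ASO2 and ASO10 target NESPR, a long non-coding RNA, and NCA is the negative control ASO, so every library, controls included, comes from transfected cells. The 30 libraries form 9 groups: ASO1, ASO2 and NCA in IMR32 with 4 libraries each, and, with 3 libraries each, NCA, ASO2 and ASO10 in SK-N-BE(2)c and likewise in NGP. The control columns of these last tables are spelled NCA for replicate 1 and NCA2 for replicates 2 and 3, while the titles place all 3 in a single control group. The time from transfection to harvest and the cultures behind the replicates are not stated, so p-values measure only the spread between these libraries, which may be technical.

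NRF2 (gene NFE2L2) is a transcription factor that KEAP1 and CUL3 keep low by ubiquitination in unstressed cells. Electrophiles and oxidants that modify KEAP1 let NRF2 accumulate, pair with small MAF proteins and bind antioxidant response elements near genes for glutathione and thioredoxin metabolism, quinone reduction and iron storage. BACH1, a heme-sensing repressor, also pairs with small MAF proteins at such elements and is best known for holding HMOX1 down.

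The core of the antioxidant response element, TGACNNNGC, was searched on both strands in RefSeq promoters of 250 bases before to 50 bases after the start (GRCh38.p14, a build other than the one named for the deposited tables). Promoters of 7 of the 9 genes were matched, 8 promoters in all, since TXNRD1 has a pair of starts. The core was present in 3 of the 8, beside 13.3% of all 35116 promoters. The windows of GCLM and TXNRD1, whose counts are described later, are shown where they lie wholly before the start. Capitals mark the match, and in the first and the third window it lies on the other strand.
GCLM, chr1:93909436-93909484, minus strand: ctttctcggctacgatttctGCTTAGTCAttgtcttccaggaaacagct
TXNRD1, chr12:104215660-104215708, plus strand: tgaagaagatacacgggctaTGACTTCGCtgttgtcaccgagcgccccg
TXNRD1, second start, chr12:104286910-104286958, plus strand: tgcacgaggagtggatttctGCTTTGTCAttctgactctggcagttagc
The matches begin 34, 99 and 102 bases before the start. A related letter pattern, TGANTCA, known from AP-1 and also part of MAF recognition elements, occurred in 7.71% of all promoters and in 1 of the 8, that of OSGIN1, where it begins 97 bases before the start and reads the same pattern on both strands.
OSGIN1, chr16:83953123-83953169, plus strand: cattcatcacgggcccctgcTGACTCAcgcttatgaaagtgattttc
These matches are descriptions of letters in short windows and not measured sites.

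Values are normalized counts, that is reads per gene divided by 1 size factor per library. The reads recovered per library numbered between 9393587 and 13932379 in IMR32, 11591178 and 13795561 in NGP, and 11497829 and 15060356 in SK-N-BE(2)c. The adrenergic neuroblastoma markers HAND2 and DBH had a mean of at least 10 in every line. Of 5 mesenchymal markers, 4 reached that mean in IMR32 and NGP and 3 in SK-N-BE(2)c. VIM was the highest, with means of 2388, 11120 and 3226 in that order, and PRRX1 the lowest, at 0.0760, 2.62 and 0.0956. Of 4 immune markers 0 reached 10 in IMR32, 2 in NGP (the highest LYZ, at 42.8) and 1 in SK-N-BE(2)c (CD14, at 38.4), and PTPRC stayed under 10 in each. The endothelial marker CDH5 was at 44.6 in IMR32 and the epithelial marker EPCAM at 13 in NGP. The libraries come from established lines. The source of these marker counts, and any part of it in the values below, was not tested. The NGP and SK-N-BE(2)c tables share 1 scale and their levels can be set side by side, whereas IMR32 was scaled apart and is compared within itself only. In these bulk libraries a change per cell and a change in the share of cells with high expression cannot be told apart.

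HMOX1 (ENSG00000100292), the inducible heme oxygenase that breaks heme down to biliverdin, iron and carbon monoxide, was high with ASO1 in IMR32 and with ASO10 in SK-N-BE(2)c. The 4 ASO1 libraries of IMR32 held normalized counts of 436, 473, 453 and 419, the ASO2 libraries 54.4, 60.3, 37.7 and 61.7, and the NCA libraries 36.6, 40.7, 37.3 and 47.8. Every ASO1 library thus stood far above every other library, while the ASO2 and NCA libraries overlapped. The means were 446 ± 23.1 (SD, n = 4), 53.5 ± 11 and 40.6 ± 5.11. On the log2(normalized count + 1) scale the difference from NCA was 3.43 (SE 0.13, a fold of 10.8) for ASO1 and 0.37 (SE 0.13) for ASO2. ASO1 and ASO2 differed by 3.06, and leaving out any 1 library kept that value between 2.90 and 3.13.

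HMOX1 in SK-N-BE(2)c was at 453, 493 and 429 with ASO10, at 233, 177 and 222 with ASO2, and at 215, 211 and 173 with NCA. All ASO10 libraries exceeded all others, and ASO2 overlapped NCA. The ASO10 mean was 458 ± 32.2 (SD, n = 3) against 200 ± 22.7 with NCA, a log2 difference of 1.20 (SE 0.11, a fold of 2.30). For ASO2 the mean was 211 ± 29.8 and the difference 0.07 (SE 0.11).

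NGP held little HMOX1 in any group. The libraries were at 15.8, 9.87 and 10.0 with ASO2, at 11.2, 12.4 and 12.8 with ASO10, and at 24.6, 10.6 and 16.4 with NCA, which corresponds to 9 to 27 reads per library. The 3 groups overlapped, and the log2 differences from NCA, -0.46 for ASO2 and -0.40 for ASO10, each had an SE of 0.36. The highest library was NCA replicate 1. Without it the differences were -0.17 and -0.12. With NCA, SK-N-BE(2)c cells held 200 normalized counts of HMOX1 and NGP cells 17.2, on the shared scale of these lines.

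**Figure D1:**
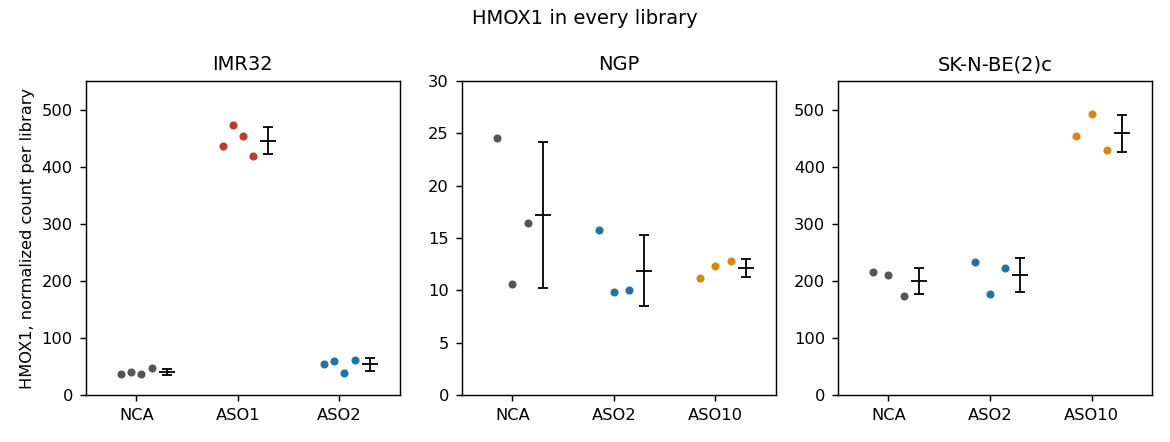
HMOX1 as normalized counts (vertical axes, from 0, with a shorter range for NGP) in each library (points) by ASO group (horizontal axes), 1 panel per line, with mean and SD as bars beside the points. The 4 ASO1 libraries of IMR32 lie between 419 and 473 and the 3 ASO10 libraries of SK-N-BE(2)c between 429 and 493, above the other libraries of their line, while no NGP library exceeds 24.6.

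The genes whose profile over libraries lay nearest to that of HMOX1 were found in each line from the root mean square difference between centred log2(normalized count + 1) profiles. In IMR32, over 12 libraries, they were LINC02785 (0.77), LRRC3B (0.79), PRSS35 (0.84), BAIAP2L1 (0.87) and RELB (0.87), beside 1.55 for the spread of HMOX1 itself about its mean. None came as close in size: LRRC3B had means of 48.7 (ASO1), 13.4 (ASO2) and 13.3 (NCA). SK-N-BE(2)c gave closer profiles over its 9 libraries, with ELMOD3 at 0.12, MOB3A at 0.13, HAUS8 at 0.14, LINC01569 at 0.14 and SIDT2 at 0.16, beside 0.57 for HMOX1. HAUS8, for instance, was at 602 with ASO10, 290.1 with ASO2 and 293 with NCA. The nearest genes in NGP were EHHADH, C1GALT1C1L, JAKMIP1-DT, LENG8-AS1 and TMEM107, at 0.19 to 0.22 beside 0.38 for HMOX1, a profile made of few reads. No gene was named in more than 1 line by this measure.

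FTL and FTH1 encode the light and heavy chains of ferritin, the shell in which cells store iron, and the heavy chain oxidises the iron that enters. FTL (ENSG00000087086) was at 3670.4, 3244, 3329 and 2839 with ASO1 in IMR32, at 2965, 2881, 2605 and 2683 with ASO2, and at 2377, 2132, 2081 and 2014 with NCA. Both ASO groups lay wholly above NCA, with log2 differences of 0.60 and 0.37 (SE 0.07 each), and overlapped each other. FTL in SK-N-BE(2)c was at 12837, 13594 and 13723 with ASO2, at 10036, 11259 and 10331 with ASO10, and at 9534, 9809.9 and 9917 with NCA. ASO2 stood apart from both other groups (0.46 from NCA, SE 0.05), and ASO10 lay just above NCA (0.11, SE 0.05). NGP controls held more FTL than those of SK-N-BE(2)c, 24145 ± 1158 (SD, n = 3), and its groups differed little, by 0.12 for ASO2 and -0.04 for ASO10.

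FTH1 (ENSG00000167996) moved less. Its IMR32 means were 3722 ± 385 with ASO1, 3537 ± 236 with ASO2 and 2994 ± 250.2 with NCA (SD, n = 4), with log2 differences from NCA of 0.31 and 0.24 (SE 0.07 each). ASO1 libraries lay above NCA libraries, and ASO2 libraries overlapped them. The SK-N-BE(2)c means were 3740 ± 177 with ASO2, 3465 ± 190.0 with ASO10 and 3140.2 ± 74.6 with NCA (SD, n = 3), and both ASO groups lay wholly above NCA (0.25 and 0.14, SE 0.05 each). In NGP the groups overlapped with NCA, at 0.16 for ASO2 and -0.15 for ASO10 (SE 0.07 each). Per base of transcript, FTL and FTH1 were about level in IMR32 controls, at a ratio of 1.01 ± 0.03 (SD, n = 4), against 1.23 ± 0.09 with ASO1 and 1.10 ± 0.02 with ASO2. The ratio was 8.76 ± 0.56 in NGP controls and 4.35 ± 0.14 in those of SK-N-BE(2)c (SD, n = 3), where ASO2 gave 5.02 ± 0.41 and ASO10 4.26 ± 0.03. Ferritin has many processed copies in the genome. Reads assigned to 25 FTH1 copies summed to 5.79% of FTH1 (IMR32), 4.03% (NGP) and 1.30% (SK-N-BE(2)c), and those of 16 FTL copies to at most 0.618% of FTL. How reads that match a gene and a copy equally were counted is not stated, so these shares do not bound the error of either gene.

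GCLC and GCLM are the catalytic and the modifier subunit of glutamate-cysteine ligase, the first and rate-limiting enzyme of glutathione synthesis. GCLM (ENSG00000023909) in IMR32 was at 526, 497, 543 and 535 with ASO1, at 354, 333, 290.1 and 341 with ASO2, and at 308, 316, 262 and 288 with NCA. Only ASO1 stood clear of NCA, by 0.84 (SE 0.07, a fold of 1.79), and ASO2 was at 0.17. GCLM ran the other way in SK-N-BE(2)c, at 330.4, 349.9 and 347 with ASO2 against 449, 519 and 427 with NCA, wholly below and lower by 0.44 on the log2 scale (difference -0.44, SE 0.10). ASO10 libraries of that line, at 466, 417 and 365, overlapped NCA (-0.16). The NGP groups overlapped, at -0.17 for ASO2 and -0.25 for ASO10 (SE 0.11 each).

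GCLC (ENSG00000001084) varied little within groups. Its IMR32 means were 859 ± 7.77 with ASO1, 802 ± 26.9 with ASO2 and 678 ± 14.4 with NCA (SD, n = 4), and both ASO groups lay wholly above NCA (0.34 and 0.24, SE 0.05 each). The NGP means were 711 ± 30.9 with ASO2, 614 ± 32.0 with ASO10 and, for NCA, 600 ± 16.2 (SD, n = 3), so that only ASO2 lay clear of NCA (0.25, SE 0.07). The SK-N-BE(2)c groups overlapped with NCA, at 0.15 and 0.00 for ASO2 and ASO10.

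NQO1 (ENSG00000181019), which reduces quinones and is often used as a readout of NRF2, followed another order than HMOX1. SK-N-BE(2)c libraries held 1859, 1896 and 2107 with ASO2, 586, 568 and 533 with ASO10, and 989, 1084 and 1124 with NCA. ASO2 lay above NCA by 0.87 (SE 0.07, a fold of 1.83), and ASO10, the group with high HMOX1, lay below NCA at -0.92 (SE 0.07, a fold of 0.528). In IMR32 NQO1 was at 101, 87.9, 97.6 and 92.7 with ASO1, at 111, 123, 142 and 112 with ASO2, and at 73.2, 80.2, 64.8 and 57.0 with NCA. The groups did not overlap, and ASO2 had the most NQO1 (0.82 for ASO2 and 0.47 for ASO1, SE 0.12 each). ASO1, with high HMOX1, lay between, and NCA, with the lowest mean of HMOX1, had the least NQO1. NGP libraries were at 77.1, 85.9 and 84.5 with ASO2, at 57.1, 48.5 and 58.2 with ASO10, and at 78.3, 67.4 and 64.6 with NCA, in the same order of groups as in SK-N-BE(2)c (0.24 and -0.35, SE 0.17 each).

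TXNRD1 (ENSG00000198431), the cytosolic thioredoxin reductase, shared this order. Its SK-N-BE(2)c libraries were at 4825, 4888 and 5206 with ASO2, at 3422, 3524 and 3551 with ASO10, and at 3711, 3769.7 and 3729 with NCA. ASO2 lay above NCA by 0.41 and ASO10 just below it, at -0.09 (SE 0.05 each). In NGP, ASO2 libraries at 2416, 2548 and 2506 lay above NCA libraries at 1999, 1838 and 2009 (0.35, SE 0.06), while ASO10 overlapped NCA (-0.05). IMR32 gave 0.28 for ASO2, without overlap, and 0.14 for ASO1, with overlap (SE 0.06 each). The same-strand genes EID3 and RPL18AP3 overlap TXNRD1 and had means of 129 and 93.5 in IMR32, 39.6 and 134 in SK-N-BE(2)c, and 32.0 and 145 in NGP.

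SRXN1 and OSGIN1 had few reads. SRXN1 (ENSG00000271303), sulfiredoxin, which repairs over-oxidised peroxiredoxins, had a mean under 10 in every line and was left out of the tests. Its SK-N-BE(2)c libraries were at 18.8, 14.5 and 9.60 with ASO2, at 8.37, 7.16 and 6.02 with ASO10, and at 6.28, 6.05 and 6.75 with NCA, so that ASO2 lay above the others, in a line with 6 to 17 reads of it per library. In IMR32 the means were 10.9 ± 1.82 with ASO1, 10.4 ± 1.10 with ASO2 and 7.72 ± 1.03 with NCA (SD, n = 4), and no NGP library exceeded 8.86. OSGIN1 (ENSG00000140961), an oxidative stress-induced growth inhibitor, was best measured in NGP, at 53.8, 61.2 and 56.7 with ASO2, 29.6, 23.8 and 31.6 with ASO10, and 37.3, 34.6 and 24.6 with NCA, where ASO2 lay clear of the others (0.83 from NCA, SE 0.23). IMR32 held 16.4, 13.3, 20.9 and 16.7 with ASO1 and 4.72, 2.47, 5.49 and 10.1 with NCA (1.52, SE 0.33), with ASO2 between at 7.49 ± 1.89 (SD, n = 4) and overlapping NCA. SK-N-BE(2)c held 0 to 22 reads of it per library, and the differences of 1.65 and 1.72 for ASO2 and ASO10 rest on NCA replicate 3, which had 0 reads. Without that library they were 0.49 and 0.56.

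**Figure D2:**
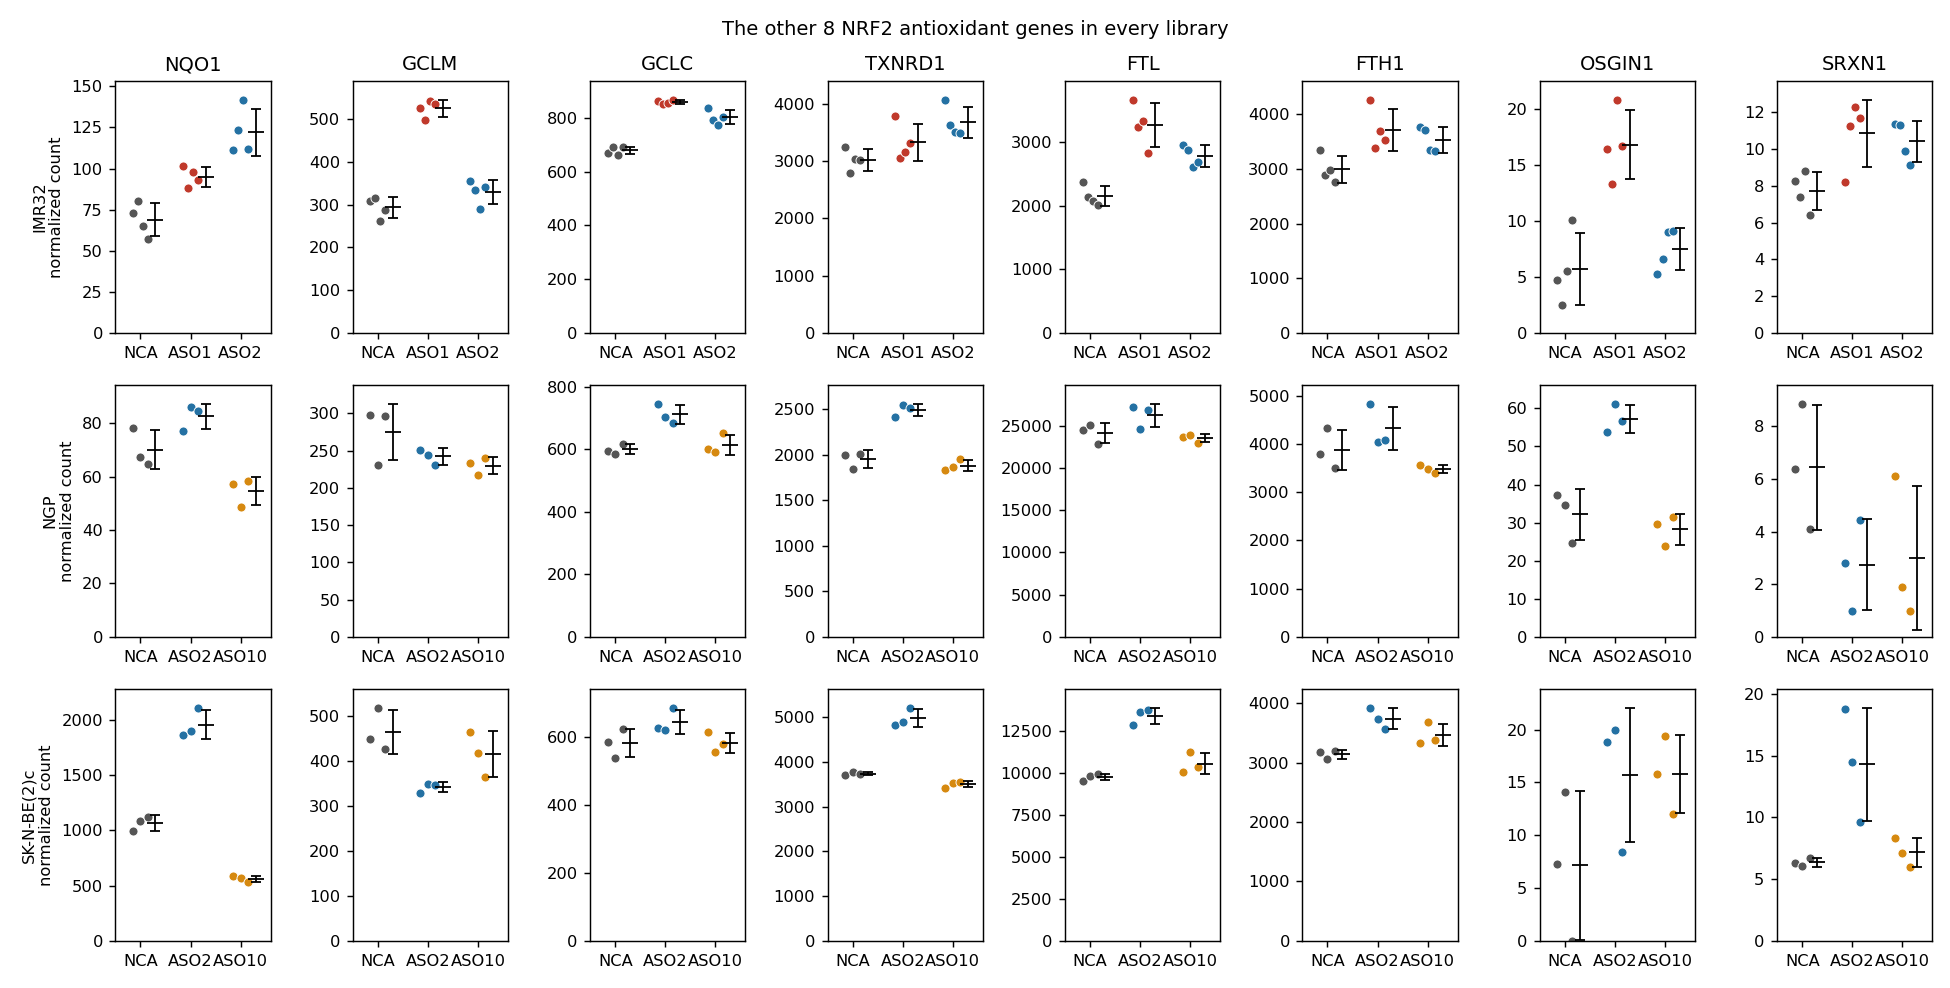
Normalized counts (vertical axes, from 0, a range per panel) of the 8 genes other than HMOX1 in each library (points), with mean and SD beside them, by ASO group (horizontal axes), for IMR32 (top), NGP (middle) and SK-N-BE(2)c (bottom). NQO1 and TXNRD1 have their highest mean with ASO2 in all 3 rows, and in SK-N-BE(2)c NQO1 with ASO10 (533 to 586) lies below NCA (989 to 1124).

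With limma and a Benjamini-Hochberg adjusted p under 0.05 as the call, 7 of the 8 members tested were called higher with ASO1 in IMR32, where 13.6% of all genes were called higher and 14.4% lower. The exception was TXNRD1 (0.14), which was called too after rescaling to the same total (0.16) or with the replicate number as a block. ASO2 in IMR32 gave 6 of 8 higher, beside 17.6% higher and 14.8% lower overall. The call of HMOX1 there was lost with edgeR, DESeq2 or rescaling to the same total (0.34), and without any of ASO1 replicates 3 and 4, ASO2 replicates 1, 2 and 4 or NCA replicates 1, 2 and 3 (0.30 to 0.38). Between ASO1 and ASO2, 4 members (HMOX1, GCLM, OSGIN1 and FTL) were higher with ASO1 and 1, NQO1, lower, beside 9.17% and 12.8% of all genes. After rescaling all libraries to the same total, that split became 5 and 0, with NQO1 at -0.30 no longer called. The NQO1 call was also lost without any of ASO1 replicates 2, 3 and 4 or ASO2 replicates 2 and 3 (-0.37 to -0.28), that of OSGIN1 without ASO1 replicate 3 or ASO2 replicate 1 or 2 (0.94 to 1.04), and that of FTL without ASO1 replicate 3 or ASO2 replicate 3 or 4 (0.20 to 0.22).

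NGP had 5 of 8 members higher with ASO2, beside 30.6% higher and 28.1% lower of all genes, 4 with edgeR or DESeq2 and 3 after rescaling to the same total. FTH1 (0.16) lost its call without any of 6 libraries and FTL (0.12) without ASO2 replicate 1 or 3 or NCA replicate 3. With ASO10 in NGP, 0 of 8 were called by limma, edgeR or DESeq2, and 3 of 8 had an unadjusted limma p under 0.05, beside 26.8% higher and 27.6% lower of all genes. GCLM (-0.26) was called lower after rescaling to the same total, and GCLM and FTH1 with the replicate number as a block. In SK-N-BE(2)c, ASO2 gave 5 higher and 1 lower (GCLM), beside 33.6% and 33.4%. ASO10 gave 3 higher (HMOX1, OSGIN1 and FTH1) and 1 lower (NQO1), beside 27.8% and 31.1%, and the split was 2 and 2 after rescaling to the same total, as FTH1 lost its call and TXNRD1 (-0.12) gained one. FTH1 was not called either without ASO10 replicate 2 or NCA replicate 2, and OSGIN1 not by edgeR or DESeq2 or without ASO10 replicate 2 (1.56) or NCA replicate 3 (0.56). With ASO2, OSGIN1 was not called by DESeq2 or without ASO2 replicate 1 or 2 (1.49 and 1.44) or NCA replicate 3 (0.49). Rescaling moved the median log2 difference of all genes in SK-N-BE(2)c from -0.02 to -0.15 for ASO2, a shift of -0.14, and the members moved with it, NQO1 to 0.74, TXNRD1 to 0.27, FTL to 0.32, GCLM to -0.57 and FTH1 to 0.11, which lost its call and left 4 higher. Since these contrasts chose the list, nothing further is read from the counts.

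**Figure D3:**
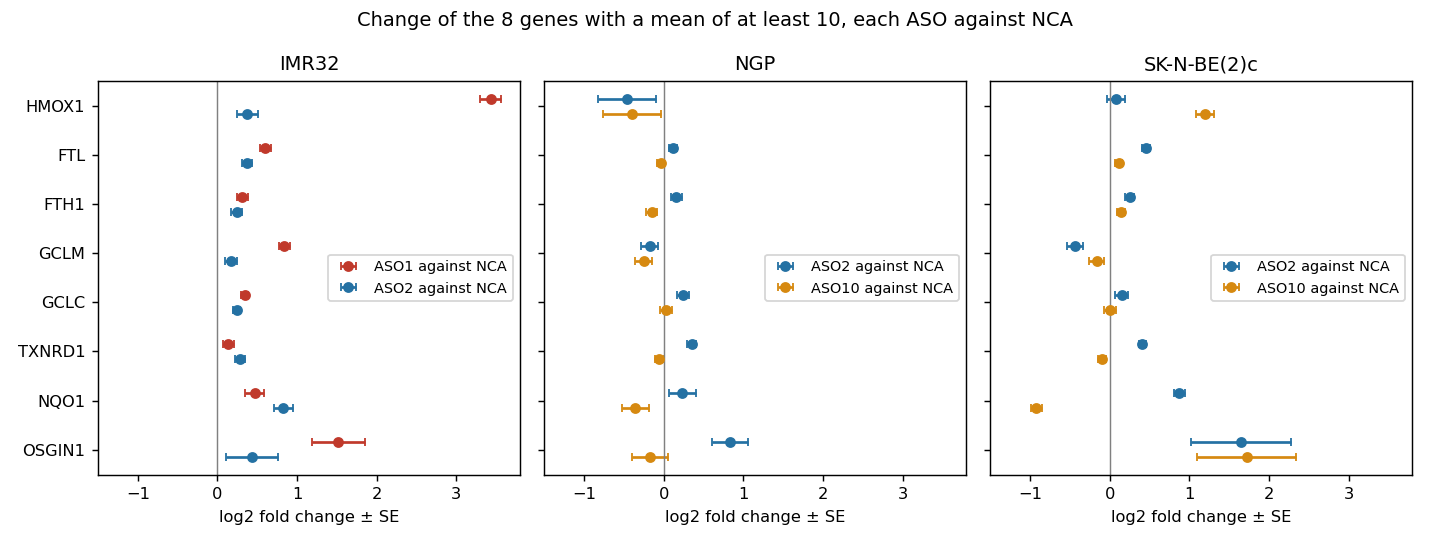
Log2 fold change on the log2(normalized count + 1) scale with its SE (horizontal axes) of the 8 genes with a mean of at least 10 (vertical axis), each ASO against NCA, by line. HMOX1 lies at 3.43 with ASO1 in IMR32 and 1.20 with ASO10 in SK-N-BE(2)c, where NQO1 lies at -0.92.

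ASO2 and ASO10 were compared directly in NGP and SK-N-BE(2)c. This contrast was not named in choosing the genes, but it uses the same libraries and the genes were chosen with earlier results known, so its p-values are not independent of that choice. In NGP, 6 of the 8 members were higher with ASO2 and 0 lower, beside 30.6% higher and 28% lower of all genes tested. TXNRD1 was higher by 0.41 (SE 0.06, limma adjusted p 7.85e-07), FTH1 by 0.31 (adjusted p 0.000385), OSGIN1 by 1.00 (adjusted p 0.000517) and NQO1 by 0.59 (adjusted p 0.00409), in each case with all 3 ASO2 libraries above all 3 ASO10 libraries. FTL (0.16, limma adjusted p 0.00455) and GCLC (0.21, adjusted p 0.0147) were higher too, also without overlap. Both lost their calls after rescaling to the same total (0.10 and 0.15), and GCLC also without any of 3 libraries, ASO2 replicate 1 or ASO10 replicate 1 or 2 (0.18 to 0.19). GCLM was at 0.08 (SE 0.11, adjusted p 0.574) and HMOX1 at -0.06 (SE 0.36, limma adjusted p 0.909), so a difference in HMOX1 was not detectable at its depth in this line.

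The same comparison in SK-N-BE(2)c split the members, 3 higher with ASO2 and 2 lower, beside 34.6% and 30.8% of all genes. NQO1 was higher with ASO2 by 1.79 (SE 0.07, a fold of 3.47, limma adjusted p 2.21e-18), TXNRD1 by 0.51 (adjusted p 6.72e-10) and FTL by 0.35 (adjusted p 6.8e-07). HMOX1 was lower with ASO2, at -1.13 (SE 0.11, limma adjusted p 1.01e-09), and GCLM at -0.27 (adjusted p 0.0132), the latter not called without ASO10 replicate 1 (-0.19). For all 5 the 3 libraries of one ASO lay beyond the 3 of the other, but this held for GCLC too, which was not called. The share of all genes separated in this way was not counted in either line. FTH1 (0.11, limma adjusted p 0.0746), GCLC (0.14, adjusted p 0.103) and OSGIN1 (-0.07, SE 0.62, adjusted p 0.932) did not pass.

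Effects that look unlike between lines were tested as differences of differences in a single limma fit over all 30 libraries and 11594 genes, on the same libraries that the choice of genes had in view. They are built from the contrasts with NCA named in choosing the genes and are given without p. For ASO10 the effect on HMOX1 was larger in SK-N-BE(2)c than in NGP by 1.60 (SE 0.29), and that on NQO1 was lower by 0.57 on the log2 scale (difference -0.57). These were the 2 of 8 members called, beside 20.9% of all genes. The SE of 0.29 comes from a spread shared over all lines. It lies below the 0.36 of the ASO10 effect in NGP alone, where HMOX1 had 9 to 27 reads, so it may be too small. The ASO2 effect differed between SK-N-BE(2)c and NGP in 2 of 8 members, NQO1 (0.64) and FTL (0.34), beside 21.6% of genes. Differences from IMR32 also rest on the values that selected HMOX1. The ASO2 effect in NGP minus that in IMR32 was -0.83 for HMOX1, -0.59 for NQO1, -0.34 for GCLM and -0.25 for FTL, the 4 of 8 members called, beside 39.6% of all genes. HMOX1 was not called without NGP NCA replicate 1 (-0.55), and FTL not without IMR32 NCA replicate 4, NGP ASO2 replicate 2 or NGP NCA replicate 2 (-0.23 to -0.21). GCLM was not called without any of 8 libraries, IMR32 ASO2 replicates 1, 2 and 4, IMR32 NCA replicates 3 and 4, NGP ASO2 replicate 3 and NGP NCA replicates 1 and 3 (-0.33 to -0.28). In SK-N-BE(2)c minus IMR32, 1 of 8 was called, GCLM (-0.60), beside 50.8% of all genes.

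The regulators of the pathway did not all follow HMOX1. NFE2L2 mRNA was level in IMR32 (1250.4 ± 84.2 with ASO1, 1285 ± 42.7 with ASO2 and 1235 ± 77.2 with NCA, SD, n = 4), and neither ASO passed the test (0.02 and 0.06, limma adjusted p 0.846 and 0.443). In NGP it rose with both ASOs, by 0.39 (limma adjusted p 0.000762) and 0.48 (adjusted p 8.76e-05), while HMOX1 lay between 9.87 and 15.8 in those libraries. SK-N-BE(2)c gave 0.22 with ASO2 (limma adjusted p 0.00631), lost after rescaling to the same total (0.08) or without ASO2 replicate 3 (0.16), and -0.05 with ASO10 (adjusted p 0.566). KEAP1 rose with both ASOs in IMR32 (0.40 and 0.22, limma adjusted p 5.81e-05 and 0.0118) and with ASO10 in SK-N-BE(2)c (0.37, adjusted p 6.69e-06).

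BACH1, the repressor, was lower in the groups with high HMOX1 than in the ASO2 group of the same line. Its mean in IMR32 was 1247 ± 68.1 with ASO1, 1590.3 ± 89.7 with ASO2 and 1382 ± 36.6 with NCA (SD, n = 4), so that ASO1 against ASO2 gave -0.35 (SE 0.05, limma adjusted p 5.3e-05). The SK-N-BE(2)c means were 329 ± 24.0 with ASO10, 454 ± 41.4 with ASO2 and 389 ± 41.8 with NCA (SD, n = 3), and ASO2 against ASO10 gave 0.46 (SE 0.10, limma adjusted p 0.000124). Both differences between ASOs kept their call without any single library. Those from NCA were small. For ASO1 in IMR32 the difference was -0.15 (limma adjusted p 0.0336), not called without any of ASO1 replicates 2, 3 and 4 or NCA replicates 1, 2 and 3 (-0.15 to -0.13). For ASO10 in SK-N-BE(2)c it was -0.24 (limma adjusted p 0.0341), not called by edgeR (-0.21) or DESeq2 (-0.20), or without ASO10 replicate 3 or NCA replicate 1 or 2 (-0.22 to -0.17). BACH1 also rose with ASO2 against NCA in both lines, and that rise formed part of each gap between ASOs. The IMR32 rise measured 0.20 (limma adjusted p 0.00522) and kept its call without any single library. The other, in SK-N-BE(2)c, measured 0.22 (limma adjusted p 0.042). Its call was lost after rescaling to the same total (0.09), or without ASO2 replicate 3 or NCA replicate 1 or 3 (0.14 to 0.24). In NGP, BACH1 rose with ASO2 by 0.49 (limma adjusted p 2.36e-06), was at 0.02 with ASO10 (adjusted p 0.877), and HMOX1 was low in both.

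SQSTM1, an autophagy receptor that binds KEAP1, was the regulator with the largest rise in IMR32 with ASO1, from 626 ± 34.8 with NCA to 1420.0 ± 40.9 (SD, n = 4), by 1.18 (SE 0.05, limma adjusted p 5.74e-12), and it rose by 0.39 with ASO2 (adjusted p 2e-05). With ASO10 in SK-N-BE(2)c it rose, from 2424 ± 204 to 3972 ± 286 (SD, n = 3), by 0.71 (limma adjusted p 1.57e-10), and was at 0.11 with ASO2 (adjusted p 0.11), with the sign turned after rescaling to the same total (-0.02) and called without NCA replicate 1 (0.18). In NGP it changed little, at -0.18 with ASO2 and 0.20 with ASO10 (limma adjusted p 0.0287 and 0.0145). The first was lost without ASO2 replicate 1 or 2 or NCA replicate 1 or 2, and the second without ASO10 replicate 1 or 2. MAFF, a small MAF protein, rose with ASO2 in every line, by 0.88 (SK-N-BE(2)c), 0.84 (IMR32) and 0.65 (NGP, limma adjusted p 0.000321, 0.000159 and 0.00107). With ASO10 in SK-N-BE(2)c it fell from 57.6 to 31.8 (-0.83, limma adjusted p 0.000796), and with ASO1 in IMR32 it rose by 0.91 (adjusted p 6.76e-05). CUL3, the scaffold of the KEAP1 ubiquitin ligase, fell with both ASOs in SK-N-BE(2)c, by 1.05 on the log2 scale with ASO10 and 0.65 with ASO2 (limma adjusted p 6.86e-13 and 5.25e-09), and in NGP, by 0.78 and 0.43 (adjusted p 8.78e-10 and 1.1e-05). IMR32 gave -0.09 with ASO1 (limma adjusted p 0.279), and there CUL3 rose by 0.19 with ASO2 (adjusted p 0.0215).

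**Figure D4:**
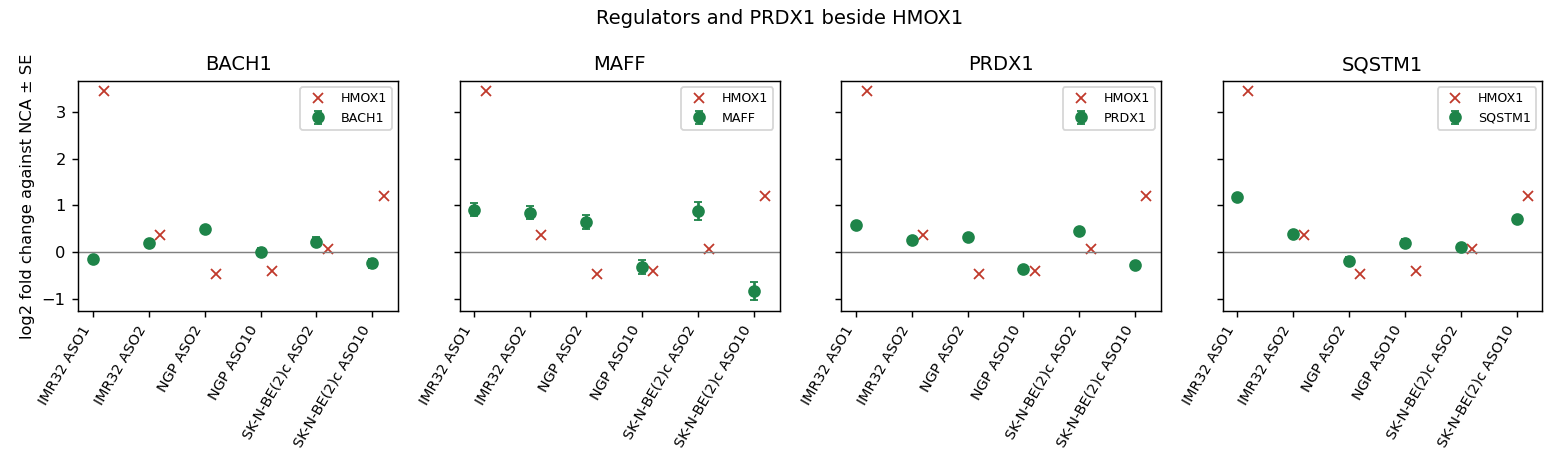
Log2 fold change against NCA with its SE (vertical axis) of BACH1, MAFF, PRDX1 and SQSTM1 (circles) in the 6 contrasts of an ASO with NCA (horizontal axes), with HMOX1 as crosses. SQSTM1 is highest in the 2 contrasts where HMOX1 is highest (1.18 and 0.71), and MAFF (-0.83) and PRDX1 (-0.27) fall with ASO10 in SK-N-BE(2)c where HMOX1 lies at 1.20.

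The remaining 102 genes of the pathway were split by role into regulators, glutathione, thioredoxin and peroxiredoxin, NADPH supply, quinone and xenobiotic reduction, heme and iron handling, and superoxide and peroxide removal. The list was drawn up from general knowledge of the pathway, with earlier results of these data known. In IMR32, 93 of them were tested, and 21 were higher and 10 lower with ASO1, while 30 were higher and 12 lower with ASO2, beside the 13.6% and 14.4%, and 17.6% and 14.8%, of all genes given above. The median log2 differences were 0.06 and 0.06, beside 0.00 for all genes. Between ASO1 and ASO2, 20 were higher and 19 lower, beside 9.17% and 12.8% of all genes. That split was 28 and 16 after rescaling to the same total. For all genes it went from 1588 higher and 2207 lower to 2352 and 1581.

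With ASO1 in IMR32, 7 of 21 other genes of heme and iron handling were called. BLVRB, a biliverdin reductase, rose from 24.4 to 49.7 (0.98, limma adjusted p 0.000981), and the iron exporter SLC40A1 rose by 0.65 (adjusted p 0.00389). The iron importer SLC11A2 fell (-0.59, limma adjusted p 3.56e-07), as did STEAP3 (-0.53, adjusted p 0.000579), which reduces iron for import. In this group 4 rose, 3 fell and 14 did not pass, beside 13.6% higher and 14.4% lower of all genes. Among glutathione genes, 6 of 25 rose and 3 fell. The extracellular glutathione peroxidase GPX3 rose by 0.91 (limma adjusted p 3.45e-06), while the cystine importer SLC7A11, a classical NRF2 and ATF4 target, fell from 2032 to 1264 (-0.70, adjusted p 0.000353). SLC7A11 fell with ASO2 as well (-0.83, limma adjusted p 7.27e-05). PRDX1, a peroxiredoxin, rose by 0.58 (limma adjusted p 3.1e-06), NQO2 by 0.50 (adjusted p 0.000976) and the superoxide dismutase SOD1 by 0.43 (adjusted p 7.47e-05).

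With ASO2 in IMR32, 7 of 13 thioredoxin and peroxiredoxin genes were higher and 3 lower, and 8 of 12 regulators were higher and 0 lower, beside 17.6% and 14.8% of all genes. SESN1 rose by 0.72 (limma adjusted p 1.39e-06) and SESN2 by 0.42 (adjusted p 0.00447), both sestrins, and TXNRD2 and TXNRD3, the other thioredoxin reductases, fell (-0.51 and -0.42, adjusted p 0.00152 and 0.0033) while TXNRD1 lay higher. TFRC, the transferrin receptor, rose from 2741 to 4022 (0.55, limma adjusted p 1.88e-07).

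In NGP, 85 pathway genes were tested. ASO2 gave 30 higher and 23 lower (23 and 32 after rescaling to the same total), and ASO10 gave 20 and 24, beside 30.6% and 28.1%, and 26.8% and 27.6%, of all genes. Rescaling turned the split of all genes with ASO2 too, from 4417 higher and 4060 lower to 3664 and 4693. With ASO2, 8 of 13 thioredoxin and peroxiredoxin genes were higher and 4 lower: SESN2 rose by 1.44 (limma adjusted p 7.2e-13) and PRDX4 by 0.72 (adjusted p 8.38e-10), and TXNRD3 and TXNRD2 fell (-1.36 and -1.03, adjusted p 2.45e-05 and 1.64e-08). SLC7A11 rose from 298 to 685 with ASO2 (1.20, limma adjusted p 1.19e-10), and its partner SLC3A2 rose by 1.05 (adjusted p 8.84e-13), while HMOX1 lay between 9.87 and 15.8. With ASO10, SLC40A1 fell (-1.12, limma adjusted p 0.00287), as did BLVRA, the other biliverdin reductase (-0.85, adjusted p 2.72e-08). The ABCC4 exporter fell with ASO10 (-1.30, limma adjusted p 4.4e-11). ASO2 against ASO10 gave 35 higher and 21 lower (31 and 23 after rescaling to the same total), beside 30.6% and 28% of all genes. For all genes the rescaling took 4414 higher and 4044 lower to 3795 and 4551. PRDX1 was at 9470 with ASO2 and 5905 with ASO10 (0.68, limma adjusted p 5.02e-12).

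In SK-N-BE(2)c, 93 pathway genes were tested, with 33 higher and 30 lower for ASO2 (24 and 37 after rescaling to the same total) and 24 and 31 for ASO10, beside 33.6% and 33.4%, and 27.8% and 31.1%, of all genes. With ASO2, rescaling took all genes from 4555 higher and 4523 lower to 3505 and 5612. The ASO10 group, in which HMOX1 was high, had SLC40A1 at 19.2 against 51.6 with NCA (-1.36, limma adjusted p 0.000111), and of 20 heme and iron genes 4 rose and 7 fell. The conjugate exporter ABCC2 was at 109 against 14.8 (2.80, limma adjusted p 2.87e-09) and the epoxide hydrolase EPHX1 at 313 against 139 (1.17, adjusted p 4.55e-10). AKR1C1 and AKR1C2, aldo-keto reductases and NRF2 targets of near-identical sequence whose reads may be shared, fell together with NQO1 (-0.72 and -0.57, adjusted p 2.42e-05 and 0.000175). ASO2 against ASO10 gave 40 higher and 25 lower (32 and 33 after rescaling), beside 34.6% and 30.8% of all genes. For all genes that rescaling took 4689 higher and 4172 lower to 3678 and 5016. On the ASO2 side were MAFF (1.70, limma adjusted p 1.79e-08), AKR1C2 (0.77, adjusted p 1.95e-06) and PRDX1 (0.71, adjusted p 8.22e-12), and on the ASO10 side ABCC2 (-3.74, adjusted p 5.08e-12), PGD, an NADPH-forming dehydrogenase (-1.05, adjusted p 1.08e-15), and SQSTM1 (-0.60, adjusted p 2.79e-09). BACH2 and MAFK in this line, and GPX2, CES1 and SOD3 in all 3, had means under 10 and were not tested. NCOA4 and SOD2 had no entry under the ID used in the NGP and SK-N-BE(2)c tables.

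Other stress genes were followed because HMOX1 can respond to heat shock in some cells, though not in all, and ATF4 shares targets with NRF2. In IMR32, 10 of 11 heat shock genes rose with ASO1 and 11 of 11 with ASO2, beside 13.6% and 17.6% of all genes. HSPA6 rose from 9.17 with NCA to 147 with ASO1 and 45.8 with ASO2 (3.97 and 2.31 from NCA, limma adjusted p 6.79e-10 and 9.5e-07), and DNAJB1 at 1931, 1408 and 649.6 (1.57 and 1.11, adjusted p 3e-10 and 5.22e-08). In SK-N-BE(2)c, 8 of 11 rose with ASO2, where HMOX1 lay at 0.07, beside 33.6% of all genes. With ASO10 there 1 rose and 2 fell, beside 27.8% and 31.1%. All 11 were higher with ASO2 than with ASO10, among them DNAJB1 (1.31, limma adjusted p 6.77e-17) and HSPH1 (1.14, adjusted p 5.37e-16), opposite in order to HMOX1. Of all genes, 34.6% were higher in that contrast. In NGP 6 of 12 rose and 1 fell with ASO2, beside 30.6% and 28.1% of all genes. With ASO10 in NGP 0 rose and 4 fell, beside 26.8% and 27.6%.

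ATF4 targets rose in all 11 genes tested with either ASO in SK-N-BE(2)c and with ASO10 in NGP, and in 10 of 11 with ASO2 in NGP. Of all genes, 33.6% rose with ASO2 and 27.8% with ASO10 in SK-N-BE(2)c, and 30.6% and 26.8% in NGP. TRIB3 in SK-N-BE(2)c was at 5343 with ASO10 and 3094 with ASO2 against 1770.0 with NCA (1.60 and 0.82, limma adjusted p 2.07e-14 and 6.12e-09). In IMR32 the ATF4 targets were divided, 3 higher and 4 lower with ASO1, beside 13.6% and 14.4% of all genes. With ASO2 there 4 were higher and 4 lower, beside 17.6% and 14.8%. DDIT3 rose by 0.98 and 1.00 (limma adjusted p 9.2e-07 and 1.08e-06), and SHMT2 fell with ASO1 (-0.48, adjusted p 0.000688). Of 10 metallothionein and zinc genes, 1 was tested in IMR32, 2 in SK-N-BE(2)c and 3 in NGP. The zinc exporter SLC30A1 rose with ASO1 and ASO2 in IMR32 (0.47 and 0.77, limma adjusted p 0.000103 and 5.01e-07) and fell with ASO10 in SK-N-BE(2)c (-0.42, adjusted p 3.42e-05). The part of heat shock or ATF4 activity in the HMOX1 levels was not tested.

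**Figure D5:**
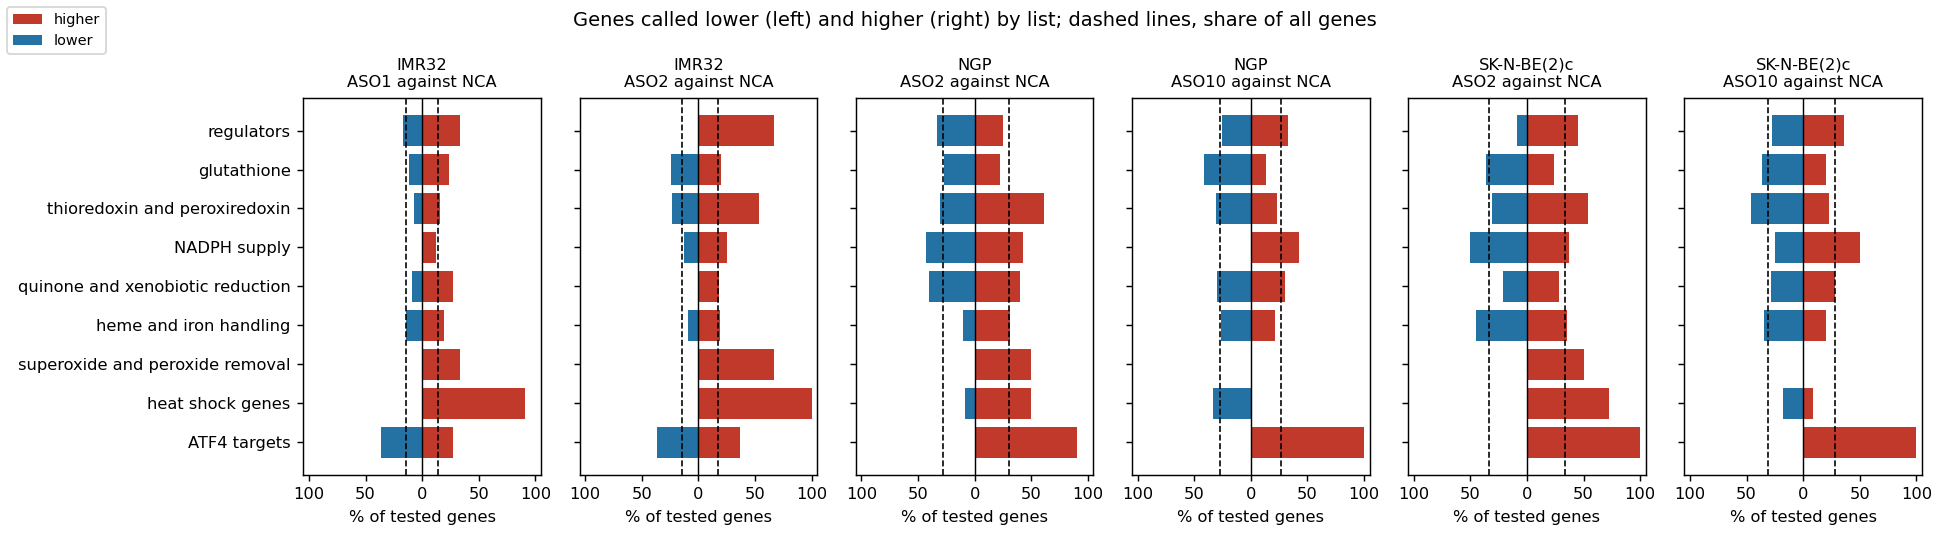
Share of tested genes called higher (bars to the right) and lower (bars to the left) in % (horizontal axes) for 9 gene lists (vertical axis) in the 6 contrasts of an ASO with NCA, with dashed lines at the share of all genes. Heat shock genes reach 11 of 11 with ASO2 in IMR32 and have 1 higher and 2 lower with ASO10 in SK-N-BE(2)c, and ATF4 targets reach 11 of 11 in both SK-N-BE(2)c contrasts.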

How the data were processed

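RNA of 30 libraries was measured by sequencing. The deposited signal values are normalized counts per the labels, which the authors made by dividing the reads of each gene by 1 size factor per library, 1 table per line. Undoing that factor gave whole reads within 0.01 for 100% of values. Per the submitters' processing notes, FastQC 0.11.8, cutadapt 1.18, STAR 2.6.0, HTSeq 0.6.1 and DESeq2 1.42.0 were used with builds hg19 and GRCh37. The notes used here give no role, order or strand setting. Per the labels' protocols, a stranded total RNA kit (paired reads) or a stranded mRNA kit (single reads) was used, and the kit of each library is not stated. The tables held 0 unused sample columns, and 174 IMR32 entries without a gene ID (0.172% of values) were left out.

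Log2(normalized count + 1) was fitted with limma 3.58.1 (R 4.3.3) as 1 model per line with group means, with moderated variances and a mean-variance trend, over genes with a mean of at least 10 (17309, 14440 and 13556 for IMR32, NGP and SK-N-BE(2)c). A call is a Benjamini-Hochberg adjusted p under 0.05 over all genes. This scale can understate changes of low genes, and can overstate them where a library has 0 reads. OSGIN1 in SK-N-BE(2)c was at 1.65 and 1.72 (ASO2 and ASO10), against 1.17 and 1.18 with DESeq2. The scripts were tested on simulated data. Members, lists and tests were chosen with earlier results of these data known. From each list and contrast up to 4 called genes of largest change could be named, plus NFE2L2, KEAP1 and BACH1 whatever their call. Not every contrast of these regulators is printed, and one left out is not thereby unchanged. Outside that rule, SQSTM1 in NGP, SQSTM1 in SK-N-BE(2)c (ASO2), PRDX1 in SK-N-BE(2)c (ASO10) and CUL3 in IMR32 were named after their values were seen. Lengths are of GENCODE 29 transcripts. Alternatives were another pseudocount, filter, scaling, test (edgeR 4.0.16 and DESeq2 on recovered reads), a fold minimum, a replicate block and leaving out each library. NESPR was not analysed under its own name.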

Additional observations from a re-analysis of the deposited data

Results flagged for a closer look

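In 9 cases the effect of an ASO on a member differed between lines by the interaction test of limma. For ASO2 these were 4 of 8 members in NGP minus IMR32, beside 39.6% of all genes, and 1 of 8 in SK-N-BE(2)c minus IMR32, beside 50.8%. In SK-N-BE(2)c minus NGP they were 2 of 8 for ASO2, beside 21.6%, and 2 of 8 for ASO10, beside 20.9%. For ASO10, SK-N-BE(2)c minus NGP, the differences on the log2 scale were 1.60 for HMOX1 and -0.57 for NQO1. HMOX1 was high in all 3 ASO10 libraries of SK-N-BE(2)c and in 0 of 3 in NGP, and NGP has only 9 to 27 reads of HMOX1 per library. For ASO2, SK-N-BE(2)c minus NGP, they were 0.34 for FTL and 0.64 for NQO1. The ASO2 effects in NGP minus IMR32 were -0.34 for GCLM, -0.25 for FTL, -0.83 for HMOX1 and -0.59 for NQO1, and for SK-N-BE(2)c minus IMR32 the GCLM difference was -0.60. The IMR32 table was scaled apart and its library kit is not stated, so line, table and kit cannot be told apart in the last 5, which also use the IMR32 values that selected HMOX1. All 9 are descriptions, since they are built from contrasts with NCA named in choosing the genes. Of the last 5, the GCLM difference for NGP was not called without any of 8 libraries, that of FTL without any of 3 and that of HMOX1 without NGP NCA replicate 1. 0 of 27 IMR32 groups of a member held a library set apart by the gap test for outliers, and groups of 3 were not examined.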

How the results depend on the processing

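No called fold change of a member and no called difference between lines changed direction under any alternative. The split of the other pathway genes into higher and lower did turn after rescaling to the same total, and so did that of all genes. For ASO2 against NCA in NGP it went from 30 and 23 to 23 and 32 (all genes, 4417 and 4060 to 3664 and 4693). In SK-N-BE(2)c it went from 33 and 30 to 24 and 37 (all genes, 4555 and 4523 to 3505 and 5612). For ASO2 against ASO10 in SK-N-BE(2)c it went from 40 and 25 to 32 and 33 (all genes, 4689 and 4172 to 3678 and 5016). The turn is thus not particular to the pathway genes. Requiring a log2 fold of at least 1 left 1, 0 and 0 of the other pathway genes in IMR32 (ASO1 and ASO2 against NCA, ASO1 against ASO2), 6, 7 and 8 in SK-N-BE(2)c and 6, 5 and 4 in NGP (ASO2 and ASO10 against NCA, ASO2 against ASO10). Of members between ASO2 and ASO10 it left 2 in SK-N-BE(2)c and 0 in NGP, since most changes were smaller. In the other 90 fits of the pathway counts, and in 26 of the member counts between ASO2 and ASO10 or between lines, counts stayed within 1.5 times. These counts take both directions together. Members called against NCA in NGP went from 5 to 3 for ASO2 after rescaling to the same total, and for ASO10 from 0 to 1 after rescaling and to 2 with the replicate block. Leaving out 1 library at a time, the HMOX1 difference of ASO2 effects ran from -1.12 to -0.55 for NGP minus IMR32 (not called without NGP NCA replicate 1) and from 0.25 to 0.82 for SK-N-BE(2)c minus NGP (called without NGP NCA replicate 2). Members called ran from 2 to 4 for ASO2 in NGP minus IMR32 (2 without IMR32 NCA replicate 4 or NGP NCA replicate 1), from 1 to 2 for SK-N-BE(2)c minus IMR32 (2 without SK-N-BE(2)c NCA replicate 2), and from 2 to 4 for ASO10 in SK-N-BE(2)c minus NGP (4 without NGP NCA replicate 3). The cause was not tested. HMOX1 in NGP and OSGIN1 and SRXN1 in most groups rest on few reads, which limits them.

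Replicate numbers were not treated as pairs, since some correlation between deviations of libraries with 1 number was below 0.1 in every comparison. In IMR32, however, these correlations ran from 0.055 to 0.318 for ASO1 and NCA, and reached 0.261 for ASO2 and NCA. The replicate block raised calls over all IMR32 genes from 4850 to 6609 for ASO1 against NCA and from 5607 to 7419 for ASO2. Part of the spread in IMR32 may thus follow replicate number. The overlaps given above set replicate number aside. With the replicate block, 41 and 51 other pathway genes were called for ASO1 and ASO2 in IMR32, against 31 and 42 without it, and HMOX1 with ASO1 was at 3.43 in both fits.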
